A study of Mus musculus with 16 samples.

Results

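The core circadian clock genes of mouse fat are described here: Arntl, Clock, Npas2, Per1, Per2, Per3, Cry1, Nr1d1, Nr1d2 and Dbp. They were chosen by gene symbol, with earlier results of these data known. All 10 of the 10 symbols had a row among the 45777 genes of the table, and all 10 passed the filter on low counts that left 19189 genes.

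Epididymal white adipose tissue is a visceral fat pad of the male mouse, and its RNA was sequenced in 4 groups of 4 libraries. A-LTA4HOE mice (OE) carried extra leukotriene A4 hydrolase, the enzyme that makes leukotriene B4, specifically in adipocytes, and their control mice (Ctrl) did not. Every group was male, lived on a 12-hour light and dark cycle and ate a high-fat diet of 60 kcal% fat from 4 weeks of age. The groups are Ctrl and OE at 8 weeks of age, after 4 weeks of diet, and Ctrl and OE at 20 weeks, after 16 weeks of diet. No group ate another diet, so age and time on the diet cannot be told apart. The sources used here give neither the promoter of the transgene nor the clock time at which tissue was taken. Libraries are named by group and replicate. In the tests between groups the p-values measure the spread between the mice of a group, with no further repeat of an animal. The permutation p-values for relations with Arntl use the 8 libraries of each age, OE and Ctrl together. They therefore also include differences between the genotypes.

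The circadian clock is a loop of transcription and repression that runs with a period of about a day in nearly every cell, fat cells included. ARNTL (also called BMAL1) pairs with CLOCK or NPAS2 and activates genes through E-box sequences, among them the Per and Cry genes, whose proteins then enter the nucleus and repress that pair. The same pair activates Nr1d1 and Nr1d2, which encode the REV-ERB repressors that act through ROR response elements (RORE) on Arntl, and Dbp, an output factor that binds D-box sequences. Transcripts of Arntl and Npas2 therefore peak at a different part of the day from those of Dbp, Nr1d1 and the Per genes, and in a tissue taken at a single time a level depends on the hour.

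Promoter sequences are shown where they hold one of the elements named below. The E-box, D-box and RORE are those described above. The promoters, 250 bases before to 50 bases after an annotated start, come from RefSeq on GRCm38.p6, the assembly also called mm10. They were searched on both strands for the E-box CACGTG, its variant CACGTT, the D-box TTATGNAA, the RORE core TAGGTCA and the cyclic AMP response element TGACGT. An element read on the other strand appears as its reverse complement, so AACGTG below is the CACGTT variant. The table had an entry for 9 of the 10 genes, all but Per2. None of these elements was found in the promoters of Npas2, Clock, Dbp and Nr1d2, or at the first annotated start of Arntl. Stretches around the matches are printed 5′ to 3′ along the gene's strand, with the matches in capitals. The first line is at chr4:151044801-151044885 on the minus strand and the next at chr10:85185094-85185148 on the minus strand. The next pair, both before starts of Per1, are at chr11:69098768-69098947 and chr11:69100005-69100040 on the plus strand. Nr1d1 is at chr11:98775385-98775420 on the minus strand, and the last is at chr7:113207529-113207558 on the plus strand, within the 50 bases past the second annotated start of Arntl.
Per3: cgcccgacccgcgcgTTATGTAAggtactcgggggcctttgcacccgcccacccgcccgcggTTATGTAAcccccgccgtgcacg
Cry1: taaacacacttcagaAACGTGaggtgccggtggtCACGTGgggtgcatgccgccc
Per1, first start: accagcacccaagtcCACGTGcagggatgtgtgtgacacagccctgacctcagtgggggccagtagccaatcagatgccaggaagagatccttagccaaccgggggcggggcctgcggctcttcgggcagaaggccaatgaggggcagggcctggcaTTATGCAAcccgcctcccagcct
Per1, second start: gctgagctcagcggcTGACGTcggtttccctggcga
Nr1d1: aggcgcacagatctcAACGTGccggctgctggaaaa
Arntl, second start: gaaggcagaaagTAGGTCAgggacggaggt

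Per3 held 2 D-boxes, from −205 to −198 and from −158 to −151 counted from the start. Cry1 held an E-box and its variant within 79 bases of the start, and the first start of Per1 held an E-box at −166 and a D-box at −24. Among 32851 promoters of the same length, the E-box was present in 7.15%, its variant in 4.68%, the D-box in 3.38%, the RORE core in 2.61% and the cyclic AMP response element in 7.51%. These are matches of letters in a short window, and they describe the promoters only.

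Total counts ran from 33.6 to 67.6 M (mega) per library. Lta4h, the gene added to the OE mice, stood at 79.4 to 104 CPM (counts scaled to library size) in the 8 Ctrl libraries and at 239 to 427 CPM in the 8 OE libraries, so every library fell on the side its label gives. Ctrl replicate 1 and OE replicate 1 at 8 weeks stood apart together on the second principal component of all genes, at −94.2 and −91.8, and OE replicate 1 at 20 weeks had 22.4 on the first component, against −96.6 to −66.7 in its 7 companions of that age. Ctrl replicate 4 and OE replicate 2 at 8 weeks held transcripts of the epididymal duct, with 3754 and 2488 summed CPM over 12 epididymal markers against at most 280.0 in any other library. In the 20-week libraries 7 to 10 of those 12 markers were at 0 counts. All 12 mature adipocyte markers were tested, and their summed level ran from 19314 to 37819.7 CPM at 8 weeks and from 9912 to 23782 CPM at 20 weeks. Bulk tissue was sequenced, so fewer cells of a type and less RNA per cell cannot be told apart.

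Compared per length, in TPM (counts divided by transcript length, then scaled so that every library has an equal total), Nr1d1 was the most abundant of the 10, at 76.3 ± 26.4 TPM (mean ± SD over the 16 libraries). Per1 followed at 29.2 ± 15.8 TPM, with Dbp at 27.4 ± 13.8, Nr1d2 at 26.8 ± 8.17 and Clock at 22.4 ± 3.78 TPM. These 4 genes lay closer to each other than the SD of Per1, and their order is not resolved. Arntl stood at 14.2 ± 4.13 TPM and Per3 at 10.4 ± 4.79 TPM, again within 1 SD of each other. Per2 at 6.93 ± 3.24 TPM, Cry1 at 5.63 ± 1.42 TPM and Npas2, the least abundant, at 2.97 ± 0.91 TPM closed the order. Npas2 is the partner of ARNTL that shares its role with CLOCK, and its level per length was below that of Clock in all 16 libraries, with a range of 1.43 to 4.81 TPM against 16.6 to 28.9 TPM.

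The activators were described first. Arntl (gene ID 11865, chr7:113178471-113314126) had 31.5, 22.8, 19.6 and 12.9 CPM in Ctrl replicates 1 to 4 at 8 weeks and 29.2, 15.4, 13.5 and 12.1 CPM in OE. The 20-week values were 24.0, 19.4, 19.4 and 27.6 CPM in Ctrl and 23.7, 11.6, 18.4 and 16.7 CPM in OE. Replicate 1 was the highest in 3 of the 4 groups, and the groups overlapped in each comparison of genotype and age. The log2 fold change of OE against Ctrl was −0.30 ± 0.31 at 8 weeks and −0.36 ± 0.31 at 20 weeks (each log2 fold change is given ± its standard error from the edgeR fit). Between 8 and 20 weeks Arntl moved by 0.06 ± 0.30 in Ctrl and 0.0047 ± 0.31 in OE, with adjusted p = 0.889 and 0.993.

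Clock (gene ID 12753, chr5:76209868-76305603), the partner of ARNTL, fell with age in Ctrl. Its values were 147, 139, 101 and 111 CPM in Ctrl at 8 weeks and 95.4, 77.0, 78.1 and 107 CPM in Ctrl at 20 weeks. In Ctrl 1 library of 20 weeks lay above the lowest library of 8 weeks, so the groups overlapped. The log2 fold change was −0.48 ± 0.15, a level 1.39-fold lower, with adjusted p = 0.0234. This call was lost when Ctrl replicate 2 or 3 at 20 weeks or Ctrl replicate 1 or 2 at 8 weeks was left out, with adjusted p from 0.0639 to 0.0735, and with 2 surrogate variables in the fit, with adjusted p = 0.152. The first of these variables partly followed age. A call lost in that fit, here or below, therefore does not show that age had no part. In OE Clock had 141, 93.0, 112 and 109 CPM at 8 weeks and 109, 87.3, 93.1 and 89.1 CPM at 20 weeks, a log2 fold change of −0.27 ± 0.15 with adjusted p = 0.216. The difference between the genotypes in this change, the interaction, was 0.21 ± 0.22 with adjusted p = 0.982, so the fall was not shown to differ between Ctrl and OE.

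Npas2 (gene ID 18143, chr1:39193702-39363240) rose with age in OE. It had 4.81, 2.48, 3.52 and 4.37 CPM in OE at 8 weeks and 5.72, 5.80, 5.58 and 8.95 CPM in OE at 20 weeks. All 4 libraries of 20 weeks lay above all 4 of 8 weeks, and the log2 fold change was 0.78 ± 0.22, a level 1.72-fold higher, with adjusted p = 0.0206. Without OE replicate 4 at 20 weeks, the highest library, adjusted p was 0.0849, and without OE replicate 3 at 8 weeks it was 0.0605. A fit of only the 2 groups compared gave adjusted p = 0.0653, and 2 surrogate variables gave 0.0920. In Ctrl Npas2 had 6.45, 5.31, 5.76 and 4.62 CPM at 8 weeks and 5.33, 6.82, 8.22 and 7.08 CPM at 20 weeks, which is 0.31 ± 0.22 on the log2 scale with adjusted p = 0.267. The interaction was 0.47 ± 0.31 with adjusted p = 0.982. OE against Ctrl at 8 weeks was −0.54 ± 0.22 for Npas2, with an unadjusted p of 0.0266 and an adjusted p of 1.0, and 1 OE library lay above the lowest Ctrl library.

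**Figure D1:**
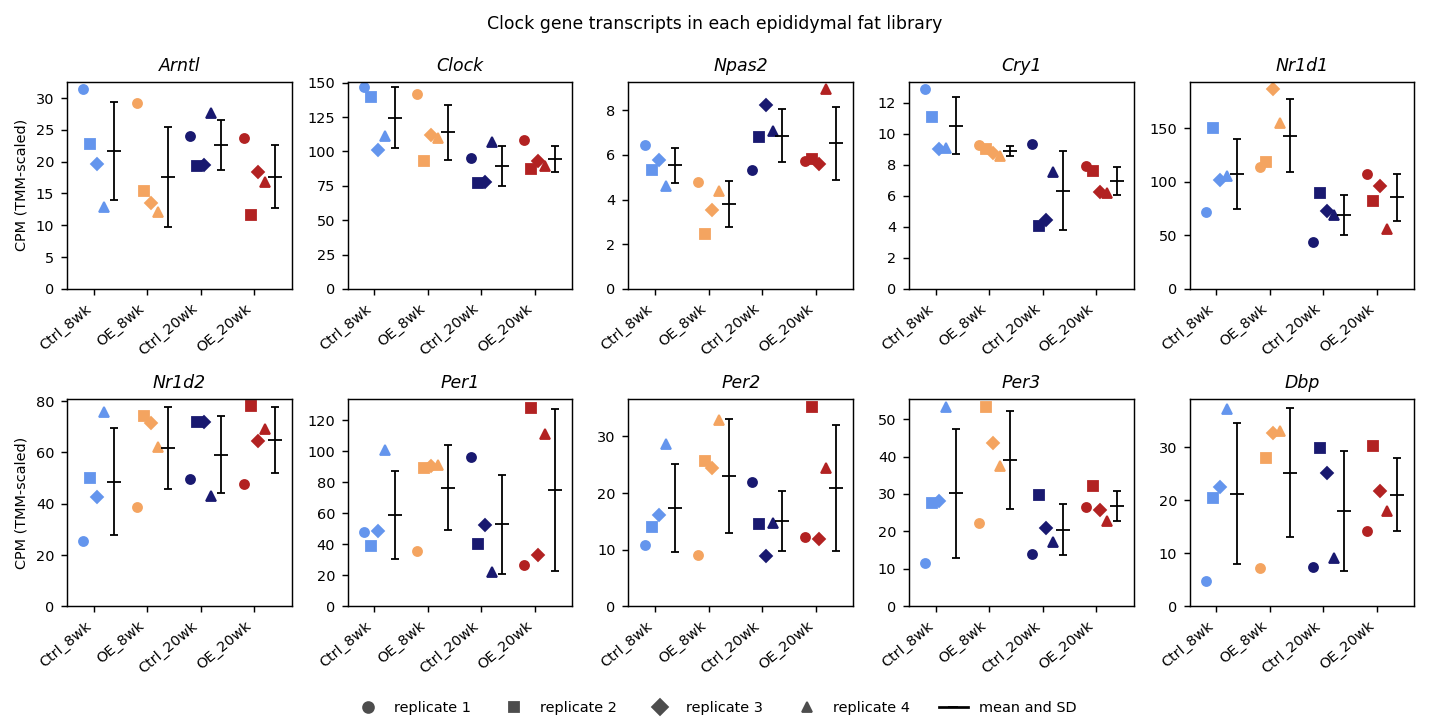
Each panel plots 1 clock gene (vertical axis, CPM scaled by TMM, starting at 0) in the 4 groups, with 1 marker per library shaped by replicate number and the group mean ± SD as a bar. Dbp, Per1, Per2 and Per3 spread widely within groups, Clock spreads least, and Npas2 in OE at 20 weeks lies above OE at 8 weeks in all 4 libraries.

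The repressors Per1, Per2 and Per3 encode the PERIOD proteins, and Cry1 encodes the cryptochrome that binds them. Per1 (gene ID 18626, chr11:69095108-69109965) had 47.7, 38.7, 48.7 and 101 CPM in Ctrl at 8 weeks and 35.8, 89.3, 90.2 and 91.0 CPM in OE. At 20 weeks it had 96.6, 40.5, 52.5 and 21.9 CPM in Ctrl and 26.8, 128, 33.2 and 111 CPM in OE. At 8 weeks Ctrl replicate 4 was far above the other Ctrl libraries and OE replicate 1 far below the other OE libraries, and the groups overlapped in each comparison. OE against Ctrl was 0.37 ± 0.54 at 8 weeks and 0.50 ± 0.54 at 20 weeks on the log2 scale. Age moved Per1 by −0.16 ± 0.54 in Ctrl and −0.03 ± 0.54 in OE.

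Per2 (gene ID 18627, chr1:91415977-91459351) had 10.8, 14.1, 16.1 and 28.6 CPM in Ctrl and 8.99, 25.6, 24.3 and 33.0 CPM in OE at 8 weeks. In the older mice Per2 had 21.9, 14.5, 8.92 and 14.7 CPM in Ctrl and 12.3, 35.2, 11.9 and 24.4 CPM in OE. Replicate 1 was the lowest in both 8-week groups, and replicate 4 was the highest in both. On the log2 scale OE against Ctrl was 0.40 ± 0.44 at 8 weeks and 0.48 ± 0.44 at 20 weeks. Age moved it by −0.22 ± 0.44 in Ctrl and −0.13 ± 0.44 in OE.

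Per3 (gene ID 18628, chr4:150997018-151044707), whose promoter holds the pair of D-boxes printed above, had 11.5, 27.7, 28.1 and 53.2 CPM in Ctrl and 22.1, 53.1, 43.6 and 37.4 CPM in OE at 8 weeks. The older mice had 14.1, 29.7, 21.0 and 17.1 CPM in Ctrl and 26.7, 32.2, 25.7 and 22.8 CPM in OE. As with Per2, replicate 1 was the lowest library of both 8-week groups. Genotype moved Per3 by 0.37 ± 0.37 at 8 weeks and 0.39 ± 0.37 at 20 weeks. Age moved it by −0.56 ± 0.37 in Ctrl, with adjusted p = 0.240, and by −0.54 ± 0.37 in OE, with adjusted p = 0.305. Without Ctrl replicate 1 at 8 weeks Per3 was called in Ctrl, with adjusted p = 0.0468.

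Cry1 (gene ID 12952, chr10:85131700-85185054) fell with age in Ctrl. It had 12.9, 11.1, 9.05 and 9.11 CPM in Ctrl at 8 weeks and 9.33, 4.03, 4.47 and 7.55 CPM in Ctrl at 20 weeks, and 1 library of 20 weeks overlapped the 8-week group. The log2 fold change was −0.73 ± 0.23, a level 1.66-fold lower, with adjusted p = 0.0201. The call was lost without Ctrl replicate 2 or 3 at 20 weeks or Ctrl replicate 1 at 8 weeks, with adjusted p from 0.0517 to 0.0656, with only the 2 groups compared, at 0.0633, with 2 surrogate variables, at 0.233, and without both libraries that stand apart at 8 weeks, at 0.0599. In OE Cry1 had 9.29, 9.05, 8.75 and 8.56 CPM at 8 weeks and 7.90, 7.61, 6.23 and 6.20 CPM at 20 weeks. Those groups did not overlap, yet the log2 fold change of −0.35 ± 0.22 had adjusted p = 0.272. The interaction of Cry1 was 0.38 ± 0.32 with adjusted p = 0.982. Genotype moved Cry1 by −0.24 ± 0.22 at 8 weeks and 0.14 ± 0.23 at 20 weeks.

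Nr1d1 and Nr1d2 encode REV-ERB alpha and REV-ERB beta. Nr1d1 (gene ID 217166, chr11:98767932-98775377) had 71.9, 150.1, 101 and 106 CPM in Ctrl and 113, 118, 186 and 155 CPM in OE at 8 weeks. At 20 weeks it had 44.1, 89.1, 72.7 and 69.4 CPM in Ctrl and 107, 82.1, 96.2 and 56.1 CPM in OE. In OE every library of 20 weeks lay below every library of 8 weeks, whereas in Ctrl the ages overlapped. The log2 fold change with age was −0.75 ± 0.26 in OE, with adjusted p = 0.0532, and −0.64 ± 0.26 in Ctrl, with adjusted p = 0.0639, so neither passed the threshold. Both passed it with DESeq2, at 0.0188 in OE and 0.0349 in Ctrl, and with limma voom, at 0.0108 and 0.0213. With 2 surrogate variables in the fit, the first of which partly followed age, the changes were smaller. They were −0.39 in OE, with adjusted p = 0.423, and −0.032 in Ctrl, with adjusted p = 0.969. Leaving out Ctrl replicate 1 at 8 weeks also brought Ctrl past the threshold, at 0.0280, and leaving out any 1 of 6 libraries brought OE past it, at 0.0401 to 0.0485. Among those 6, Ctrl replicate 1 at 20 weeks and Ctrl replicates 1 and 2 at 8 weeks are not in the OE comparison. Without any of them the change in OE stayed at −0.75, and only the shared fit and the adjustment moved. OE against Ctrl was 0.42 ± 0.26 at 8 weeks and 0.31 ± 0.26 at 20 weeks. Nr1d1 overlaps Thra, the thyroid hormone receptor alpha gene, by 1075 bases at their 3′ ends. Thra stood at 134 to 184 CPM at 8 weeks and 73.1 to 136 CPM at 20 weeks, and since the strand setting of the counting is not given, the reads of the shared stretch cannot be told apart.

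Nr1d2 (gene ID 353187, chr14:18204056-18239106) had 25.6, 50.2, 42.7 and 75.9 CPM in Ctrl and 38.8, 74.1, 71.4 and 62.2 CPM in OE at 8 weeks. After 20 weeks it had 49.8, 71.7, 72.0 and 43.0 CPM in Ctrl and 47.6, 78.1, 64.6 and 69.1 CPM in OE. Replicate 1 was the lowest library in 3 of the 4 groups. OE against Ctrl was 0.34 ± 0.29 at 8 weeks and 0.13 ± 0.29 at 20 weeks, and age moved it by 0.28 ± 0.29 in Ctrl and 0.07 ± 0.29 in OE. Its age contrasts were positive, whereas those of its close relative Nr1d1 were negative, and neither gene passed the test.

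Dbp (gene ID 13170, chr7:45705100-45710203), the output factor, had 4.70, 20.4, 22.5 and 37.3 CPM in Ctrl and 7.23, 27.9, 32.7 and 33.0 CPM in OE at 8 weeks. In the 20-week groups it had 7.42, 29.9, 25.1 and 9.15 CPM in Ctrl and 14.2, 30.3, 21.7 and 18 CPM in OE. Replicate 1 was the lowest in all 4 groups, and in Ctrl at 20 weeks replicate 4 was low as well. OE against Ctrl was 0.24 ± 0.59 at 8 weeks and 0.23 ± 0.59 at 20 weeks, and age moved it by −0.25 ± 0.59 in Ctrl and −0.26 ± 0.59 in OE. Dbp overlaps Sphk2 by 741 bases, and Sphk2 stood at 35.3 to 66.9 CPM over the 16 libraries.

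The comparison of OE with Ctrl asked what extra LTA4H in adipocytes does to the fat pad. At 8 weeks 0 of the 10 clock genes were called, against a background of 0.0208% of all genes tested, and at 20 weeks 0 of the 10, against 0.0261%. At an unadjusted p under 0.05 the count was 1 of 10 at 8 weeks, Npas2, where 2.21% of all genes passed, and 0 of 10 at 20 weeks, where 3.97% passed. Groups of OE and Ctrl overlapped for all 10 at both ages, where 1.24% of all genes did not overlap at 8 weeks and 2.73% at 20 weeks. DESeq2 and limma voom also called 0 of the 10 at either age. The members' median log2 fold change was 0.29 at 8 weeks and 0.19 at 20 weeks, beside 0.0018 and 0.02 over all genes tested. Single members ranged from −0.54 to 0.42 at 8 weeks and from −0.36 to 0.50 at 20 weeks, with standard errors from 0.15 to 0.59. The interaction of genotype and age was called for 0 of the 10, beside 0.00% of all genes, and 0 of the 10 had an unadjusted p under 0.05, beside 3.39%. These errors do not show that genotype left the clock genes alike: for Dbp and Per1 the standard error alone covers a change of about the size of the estimates or more.

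The comparison of 20 with 8 weeks of age asked what a longer time on the diet, together with age, does. In Ctrl 2 of the 10 clock genes were called, Clock and Cry1, both lower, against a background of 40.9% of all genes called and 21.3% called lower. Groups overlapped for all 10 members in Ctrl, where 33.2% of all genes had groups that did not overlap. In OE 1 of the 10 was called, Npas2, higher, against a background of 23.0% called and 13.1% called higher. Groups did not overlap for 3 of the 10 in OE, Npas2 higher and Cry1 and Nr1d1 lower, where 22.3% of all genes did not overlap, 12.9% higher and 9.50% lower. The counts of called clock genes, 2 of 10 in Ctrl and 1 of 10 in OE, were below the shares of all genes called. The 3 of 10 without overlap in OE were near the share of all genes, 22.3%. The members' median log2 fold change with age was −0.23 in Ctrl and −0.20 in OE, beside −0.05 and −0.03 over all genes tested. Cell type markers moved with the same comparison. Macrophage markers were higher at 20 weeks in 12 of 12 genes in both genotypes, with summed CPM of 1467 to 3599 at 8 weeks and 4659.8 to 11779.9 at 20 weeks, and mature adipocyte markers were lower in 9 of 12 in both. Smooth muscle markers were lower in 7 of 8 in Ctrl and 6 of 8 in OE. Their median log2 fold changes were −2.90 and −2.31. Their summed CPM was 604 to 4625 at 8 weeks and 211 to 548 at 20 weeks. The 8-week values of 4625 and 4515 CPM came from Ctrl replicate 4 and OE replicate 2, which hold epididymal transcripts. The other 8-week libraries had 604 to 953 CPM. Endothelial markers were lower in 6 of 7 in Ctrl and 2 of 7 in OE, with 1021 to 1340 summed CPM at 8 weeks and 559 to 1120 at 20 weeks. Mesothelial markers were lower in 2 of 8 in Ctrl and 7 of 8 in OE, with 174 to 397 summed CPM at 8 weeks and 47.4 to 339 at 20 weeks. Lymphoid markers were higher in 5 of 10 in Ctrl and 0 of 10 in OE. Their summed CPM was 12.9 to 46.4 at 8 weeks and 13.9 to 299 at 20 weeks. Ctrl replicates 1 to 4 at 20 weeks had 299, 32.1, 28.3 and 66.1 CPM, beside 12.9 to 29.1 in Ctrl at 8 weeks. Of 8 stromal progenitor markers, 2 were higher and 1 lower in Ctrl, and 0 higher and 1 lower in OE. The part of all these markers in the calls for Clock, Cry1 and Npas2 was not tested.

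**Figure D2:**
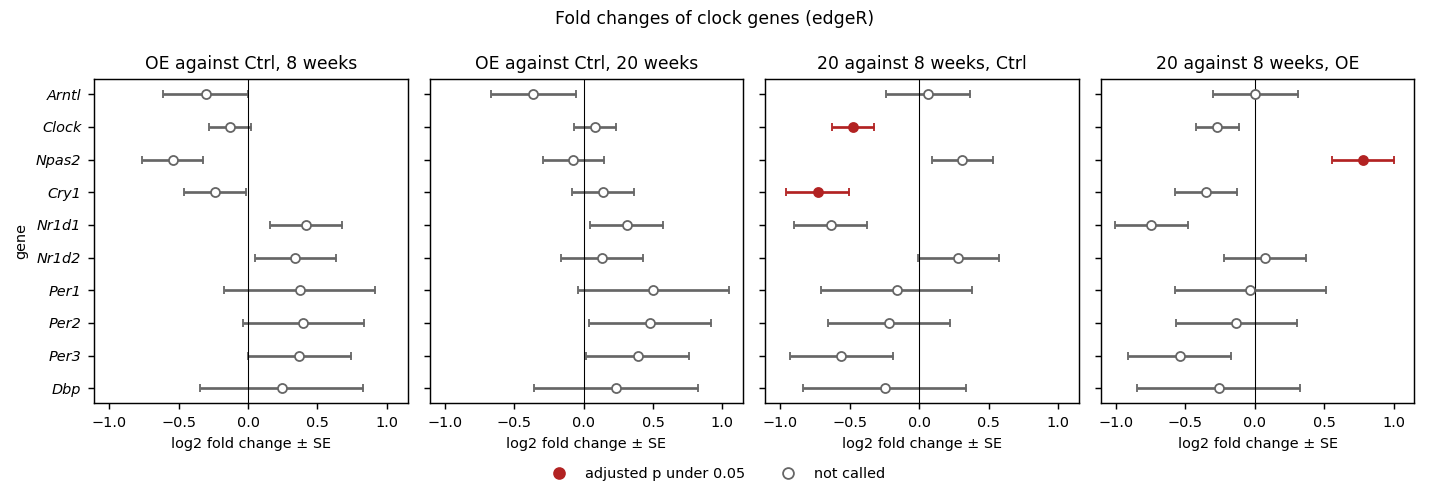
Log2 fold changes (horizontal axis) of the 10 clock genes with standard errors from the edgeR fit, in 4 comparisons, with filled points for adjusted p under 0.05. The filled points are Clock and Cry1 for age in Ctrl and Npas2 for age in OE, and both panels of OE against Ctrl hold open points only.

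Other genes of the clock were read from lists. Among all genes tested, 19.6% were called higher and 21.3% lower with age in Ctrl, and 13.1% higher and 9.91% lower in OE, and the counts for each list stand beside these shares. Of 12 further clock components, 2 were called higher and 3 lower with age in Ctrl, near the shares of all genes, and 2 higher and 0 lower in OE. Bhlhe40, a repressor that acts on E-boxes, was −0.73 ± 0.17 with age in Ctrl (adjusted p = 0.00418), Hlf, a D-box factor related to DBP, −2.0 ± 0.48 (adjusted p = 0.00520), and Cry2, the second cryptochrome, −0.85 ± 0.21 (adjusted p = 0.00584). Cipc, which encodes a CLOCK-interacting repressor, was higher in both genotypes, by 0.42 ± 0.12 in Ctrl and 0.54 ± 0.12 in OE. Timeless was higher too, by 0.62 ± 0.18 in Ctrl and 0.57 ± 0.18 in OE, although the OE call was lost without any 1 of 5 OE libraries, with adjusted p up to 0.102. Without Ctrl replicate 3 at 20 weeks the Ctrl calls of Timeless and Cipc were lost, with adjusted p = 0.0503 and 0.05001. The 3 genes lower in Ctrl were not called in OE, and their interaction had adjusted p = 0.982 each by edgeR, so a difference between genotypes was not shown by that test. With DESeq2 the interaction was called for Bhlhe40, at 1.17 with adjusted p = 0.00530, and not for Hlf or Cry2, with adjusted p = 0.989 each. The list's median with age was −0.19 in Ctrl and 0.36 in OE. With 2 surrogate variables in the fit, Bhlhe40, Hlf, Cry2, Cipc and Timeless in Ctrl and Cipc and Timeless in OE were no longer called, and in Ctrl Timeless was at 0.19 (adjusted p = 0.603) and Cipc at 0.089 (adjusted p = 0.754).

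Of 13 genes that control clock proteins, 0 were higher and 2 lower with age in Ctrl, and 1 was higher and 3 lower in OE, where 40.9% of all genes tested were called in Ctrl and 23.0% in OE. Ncor1, the co-repressor recruited by REV-ERB proteins, was −0.28 ± 0.10 in Ctrl and −0.33 ± 0.10 in OE. Gsk3b, a clock protein kinase, was 0.25 ± 0.07 in OE, and Btrc, which encodes the ligase subunit for PERIOD proteins, was −0.25 ± 0.08 in OE. These calls were fragile: leaving out 1 library ended the call of Ncor1 in Ctrl in 6 cases and in OE in 4, of Btrc in 8 and of Gsk3b in 2. With 2 surrogate variables Ncor1 in both genotypes and Btrc in OE were not called. The list's median was −0.06 in Ctrl and −0.07 in OE.

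Of 14 genes known as rhythmic outputs of the clock, 3 were higher and 6 lower with age in Ctrl, and 3 were higher and 3 lower in OE, beside the shares of 19.6% and 21.3% of all genes in Ctrl and 13.1% and 9.91% in OE. Klf15, a metabolic transcription factor, fell by 1.93 ± 0.28 on the log2 scale in Ctrl (adjusted p = 2.17e-04) and by 1.69 ± 0.28 in OE. Por, the electron donor of cytochrome P450 enzymes, fell by 0.62 ± 0.14 in Ctrl and by 0.72 ± 0.14 in OE, and Ppp1r3c, a glycogen-targeting subunit of protein phosphatase 1, by 1.48 ± 0.34 and 1.21 ± 0.34. The OE call of Ppp1r3c was lost without OE replicate 3 or 4 at 20 weeks or OE replicate 3 or 4 at 8 weeks, with adjusted p from 0.0567 to 0.0656. With 2 surrogate variables Ppp1r3c was at −0.71 in Ctrl and −0.70 in OE (adjusted p = 0.293 and 0.186) and Por in Ctrl at −0.43 (adjusted p = 0.229), none of them called. Tsku rose by 0.63 ± 0.12 in Ctrl and 0.70 ± 0.12 in OE. The list's median was −0.16 in Ctrl and −0.18 in OE. For none of the 3 lists did the edgeR fit call a gene for OE against Ctrl at either age or for the interaction. The interaction of Bhlhe40 was called with DESeq2, as given above.

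Within groups the 10 genes differed in how far the libraries lay apart. The SD of log2 CPM around the group means was 1.0 for Dbp, 0.86 for Per1, 0.69 for Per2 and 0.59 for Per3. Among the 13322 genes whose log2 CPM averaged 1 or more (a limit set after the spread was seen), which had a median SD of 0.21, these stood at percentiles 98.3, 97.4, 95.6 and 93.2. Arntl had 0.46, Nr1d2 0.46 and Nr1d1 0.40, at percentiles 87.3, 87.1 and 82.7. Cry1 at 0.33, Npas2 at 0.31 and Clock at 0.22 were nearer the middle, with percentiles of 74.1, 71.5 and 54.5. Among all 19189 genes, which include noisier genes of low counts, the 10 percentiles ran from 38.5 for Clock to 87.9 for Dbp. The highest library exceeded the lowest by 7.93-fold for Dbp, 5.86-fold for Per1 and 4.64-fold for Per3, against 1.91-fold for Clock. The spread of Dbp was 1.17 at 8 weeks and 0.79 at 20 weeks, and that of Per1 was 0.64 and 1.03.

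**Figure D3:**
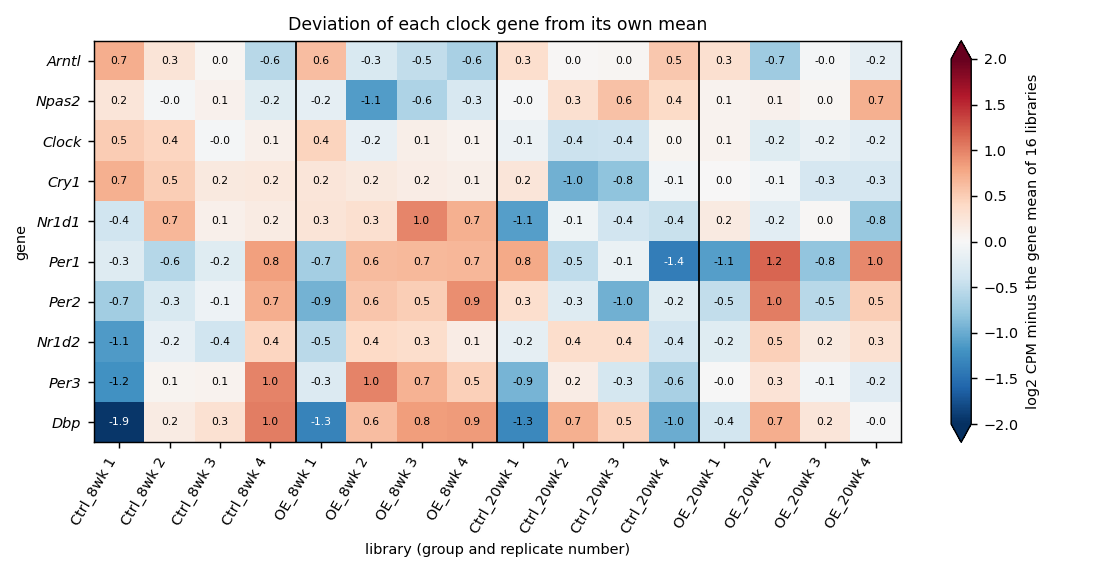
Each cell gives the log2 CPM of 1 clock gene (rows) in 1 library (columns, 4 groups of 4 divided by lines) minus that gene's mean over the 16 libraries, in colour and as a number. Replicate 1 of both 8-week groups is high for Arntl, Clock and Cry1 and low for the Per genes, Nr1d2 and Dbp, and replicate 4 of Ctrl at 8 weeks shows the opposite for Arntl, the Per genes and Dbp.

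Arntl and Dbp stand for opposite arms of the clock, and their difference within a library does not depend on how libraries are scaled. Log2 CPM of Arntl minus that of Dbp was 2.73, 0.16, −0.20 and −1.52 in Ctrl replicates 1 to 4 at 8 weeks and 2.0, −0.86, −1.27 and −1.44 in OE. In the 20-week groups the difference was 1.69, −0.62, −0.37 and 1.59 in Ctrl and 0.74, −1.38, −0.24 and −0.10 in OE. Each group held libraries on both sides of 0, and replicate 1 had the highest value in all 4 groups. The 2 extreme libraries of 8 weeks, replicates 1 of Ctrl and OE, are those that stand apart on the second principal component.

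Across the 8 libraries of 8 weeks, Arntl ran opposite to Per1, Per2, Per3, Nr1d2 and Dbp. The share of all genes that relate to Arntl as closely was not computed at either age. The p-values below therefore do not show that the relations are particular to clock genes. In the ranking over 16 libraries given further below, other genes lay closer to Arntl than any clock gene. Pearson's r of log2 CPM with Arntl was −0.98 for Per2 and −0.93 for Dbp, with exact two-sided permutation p of 2.23e-04 and 7.44e-05. Adjusted by Benjamini-Hochberg over 18 relations (9 genes at 2 ages), these exact p-values were 0.00201 and 0.00134. Spearman's rho was −0.95 for Per2 and −0.98 for Dbp, with exact permutation p of 0.00114 and 3.97e-04, adjusted to 0.0103 and 0.00714. Per1 at −0.91, Nr1d2 at −0.90 and Per3 at −0.88 also passed by r, with exact permutation p of 0.00652, 0.00253 and 0.00206, adjusted to 0.0196, 0.00911 and 0.00911. By Spearman's rho, Per1 passed at −0.90 (adjusted exact p = 0.0274), whereas Per3 at −0.83 and Nr1d2 at −0.81 did not (adjusted exact p = 0.0653 for each). Clock at 0.77, Cry1 at 0.75, Npas2 at 0.59 and Nr1d1 at −0.59 did not pass, with adjusted exact permutation p of 0.0740, 0.0571, 0.174 and 0.174. Their rho was 0.64, 0.81, 0.69 and −0.55, with adjusted exact permutation p from 0.0653 to 0.220.

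The 2 libraries farthest from the median of Arntl at 8 weeks are Ctrl replicate 1 and OE replicate 1, which stand apart from the rest. Without them, r over 6 libraries was −0.97 for Dbp, −0.97 for Per2 and −0.96 for Per1, and these 3 relations still passed. It was −0.74 for Per3 and −0.77 for Nr1d2, which no longer passed, and 0.41 for Clock, 0.43 for Npas2, 0.81 for Cry1 and −0.19 for Nr1d1. Leaving out Ctrl replicate 1 alone ended the calls of Per3 and Nr1d2, with adjusted exact permutation p of 0.0625 and 0.0614. Cry1 passed without OE replicate 1 or without Ctrl replicate 2, with adjusted exact permutation p = 0.0179 each. Ctrl replicate 4 and OE replicate 2, which hold epididymal transcripts, had 12.9 and 15.4 CPM of Arntl, within the range of the other libraries. They were the 2 highest 8-week libraries for Per3, at 53.2 and 53.1 CPM, and for Nr1d2, at 75.9 and 74.1 CPM. Ctrl replicate 4 was also the highest at 8 weeks for Per1, at 101 CPM, and for Dbp, at 37.3 CPM. Per2 in both libraries, and Per1 and Dbp in OE replicate 2, lay within the range of the other 8-week libraries. The part of the epididymal transcripts in the relations was not tested.

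At 20 weeks 1 of the 9 relations passed by r. Nr1d2 had r = −0.86 (adjusted exact permutation p = 0.00911) and rho = −0.76 (adjusted exact permutation p = 0.0827), and r was −0.87 without the 2 libraries farthest from the median of Arntl, OE replicate 2 and Ctrl replicate 4. Dbp had r = −0.76 and rho = −0.76, with adjusted exact permutation p of 0.0571 and 0.0827. Per3 at −0.68, Per1 at −0.68 and Per2 at −0.56 did not pass, nor did Clock at 0.53, Cry1 at 0.18, Npas2 at −0.05 or Nr1d1 at −0.16. Their rho values were −0.69, −0.67, −0.31, 0.57, 0.33, −0.19 and −0.21 in the same order, and none passed. For these 7 genes the unadjusted exact permutation p of r ran from 0.0574 to 0.902. Without OE replicate 2 and Ctrl replicate 4, r was −0.68 for Dbp, −0.41 for Per3, −0.22 for Per1, −0.05 for Per2, −0.71 for Npas2, 0.60 for Cry1, −0.045 for Nr1d1 and 0.54 for Clock. It was thus weaker for Per1, Per2 and Per3, larger in size for Npas2 and Cry1, and near 0 either way for Nr1d1. Leaving out the extremes of Arntl also narrows its range, which by itself can weaken r. The call of Nr1d2 was lost without Ctrl replicate 4 (adjusted exact permutation p = 0.0653), Per1 passed without Ctrl replicate 1 (0.00911), and Dbp passed without Ctrl replicate 2 (0.0474). Clock passed when deviations from the group means were used, with r = 0.82 (adjusted exact permutation p = 0.0281). Whether the relations differ between the ages was not tested.

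**Figure D4:**
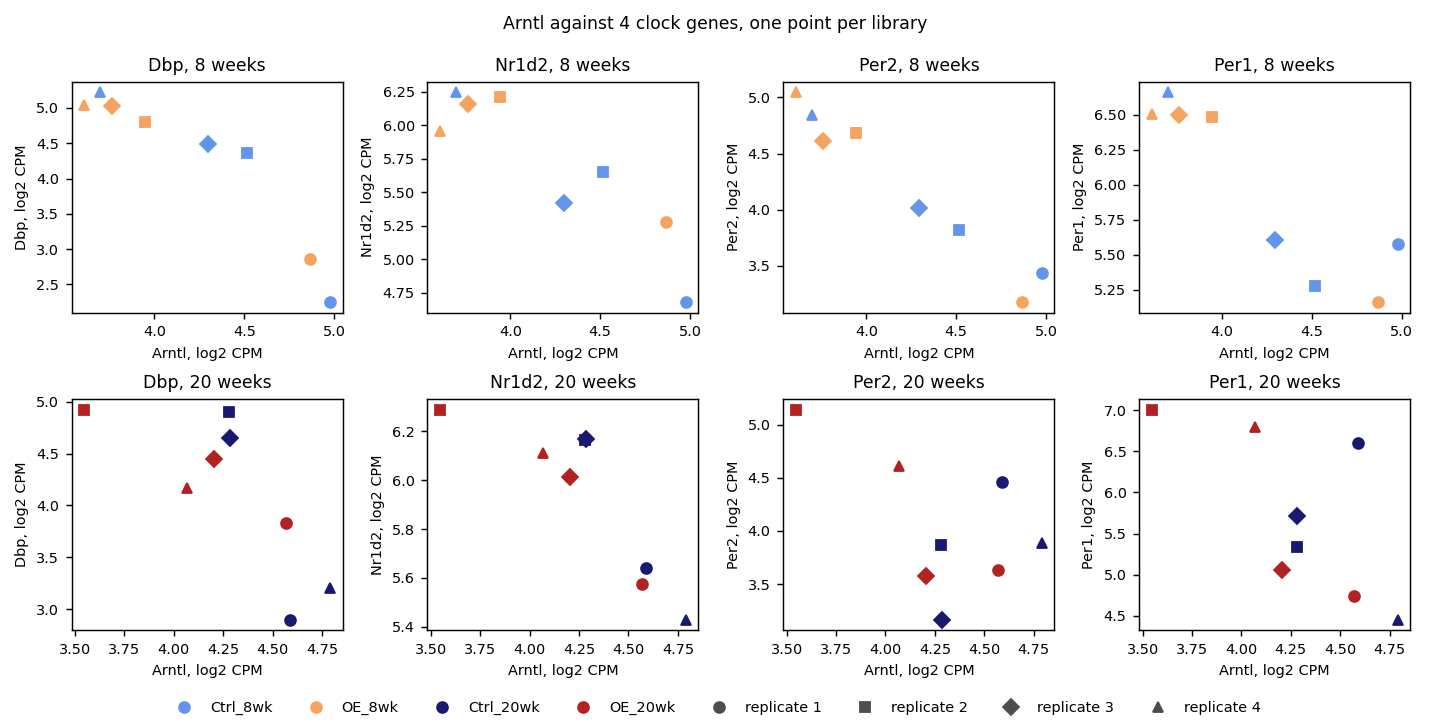
Log2 CPM of Dbp, Nr1d2, Per2 and Per1 (vertical axes) against that of Arntl (horizontal axes), with 1 point per library, 8 weeks in the upper row and 20 weeks in the lower. At 8 weeks all 4 genes fall as Arntl rises, with r from −0.98 to −0.90, and at 20 weeks the points of Per1 and Per2 scatter more widely, with r of −0.68 and −0.56.

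Genes whose pattern was most like that of Dbp were ranked by Pearson's r of log2 CPM deviations from the group means over the 16 libraries, among 12340 genes, as a description with no test. All genes are read in the same 16 libraries, so they share each library's depth and composition. Tef came first at 0.96, and it encodes a D-box factor of the same family as DBP. Nr1d2 at 0.93 and Per3 at 0.91 came next, and Zkscan17 at 0.89 was also among the highest. The lowest were Vgll3 at −0.91, Lamb3 at −0.91, Gtf2a2 at −0.90, Mlec at −0.89 and Bet1 at −0.89. Hlf, the other member of the DBP family, ranked 22nd from the top at 0.86, and Nfil3, the repressor that competes for D-boxes, 20th from the bottom at −0.86. Without the 3 libraries that stand apart, Tef stayed at 0.94, Nr1d2 was at 0.81 and Per3 at 0.81.

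For Arntl the highest were Col18a1 at 0.93, Asap2 at 0.92, Osbpl5 at 0.92, Osgin1 at 0.91 and Kirrel at 0.91, and without the 3 libraries these lay between 0.77 and 0.86. The lowest were Pias1 at −0.93, Rnaset2a at −0.93, Slc19a2 at −0.92, Phrf1 at −0.91 and Zfp821 at −0.90. Nr1d2 at −0.89 and Dbp at −0.88 came 6th and 7th from the bottom. Per3 at −0.79, Per2 at −0.78 and Per1 at −0.71 came 69th, 79th and 225th from the bottom of the 12340 genes. Clock, the partner of ARNTL, was at 0.77, 235th from the top.

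Per1 also responds to glucocorticoid hormones, and its 3 highest libraries at 20 weeks were Ctrl replicate 1 and OE replicates 2 and 4, at 96.6, 128 and 111 CPM. The same 3 libraries were the 3 highest for 11 of 12 genes on a list of glucocorticoid-induced genes (91.7%), for 2 of the 10 clock genes, Per1 and Per2, and for 3.67% of all genes tested. This set of libraries was chosen after their Per1 values were seen, so it is a description with no test. Tsc22d3, the glucocorticoid-induced leucine zipper gene, had 313, 92.6, 128 and 74.1 CPM in Ctrl and 102, 280.3, 97.1 and 270.0 CPM in OE at 20 weeks. Fkbp5, a co-chaperone of the glucocorticoid receptor, had 139.8, 51.6, 41.1 and 33.0 CPM in Ctrl and 46.9, 92.5, 36.9 and 67.1 CPM in OE. Dbp did not share this order, with 7.42 CPM in Ctrl replicate 1 and 29.9 CPM in Ctrl replicate 2. With age, 0 of the 12 glucocorticoid-induced genes were called in Ctrl, beside 40.9% of all genes tested, and 1 in OE, beside 23.0%. The 1 in OE was Dusp1, higher by 0.83 ± 0.29 with adjusted p = 0.0495. Its call was lost in 12 of 16 fits that left out 1 library. Some of those fits left out a Ctrl library, which is outside the comparison in OE.

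**Figure D5:**
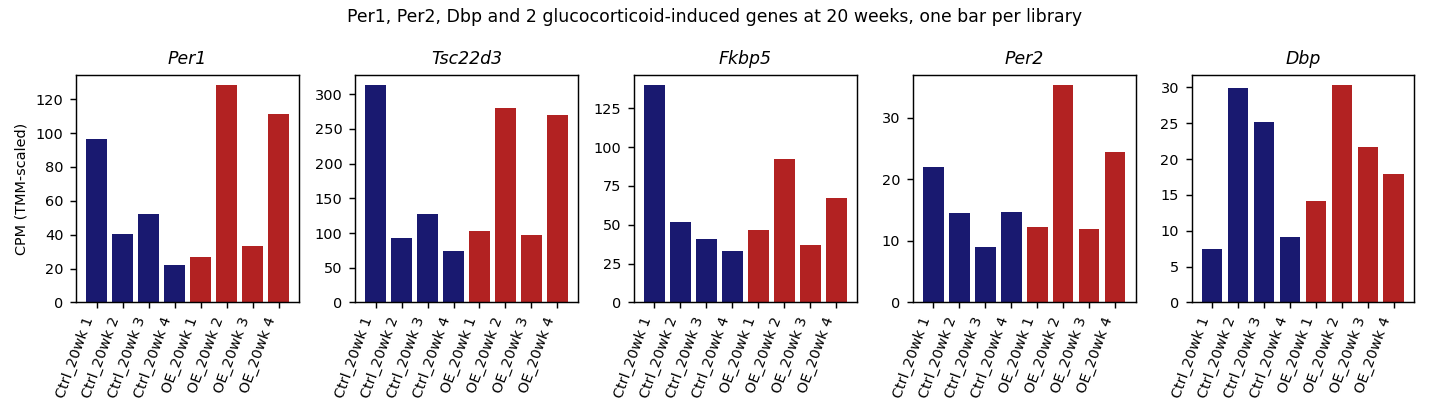
Bars give the CPM (vertical axes, starting at 0) of Per1, Tsc22d3, Fkbp5, Per2 and Dbp in each of the 8 libraries of 20 weeks, blue for Ctrl and red for OE. Ctrl replicate 1 and OE replicates 2 and 4 are the 3 tallest bars for Per1, Tsc22d3, Fkbp5 and Per2, whereas for Dbp Ctrl replicate 1 is the shortest.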

How the data were processed

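RNA from 16 mouse fat libraries had been read by the authors with bcl2fastq 2.20.0, Trimmomatic, HISAT2 2.1.0 and StringTie 2.1.3b on mm10, per the submitters' processing notes. Neither the annotation release nor how strand was treated in counting is given in the sources used here. The tests used the deposited counts, whole numbers per gene before any normalisation by the authors, which may be rounded estimates because StringTie computes them from coverage. The authors' TPM values, deposited beside them, served to compare levels between genes. The authors' FPKM values were deposited too and were not used.

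Counts were fitted in R 4.3.3 with edgeR 4.0.16 (filterByExpr at a minimum count of 10, TMM scaling, robust quasi-likelihood fit of all 4 groups, 12 residual degrees of freedom). Over 19189 genes, p-values were adjusted by Benjamini-Hochberg, with a threshold of 0.05 in each of 5 contrasts. CPM are counts scaled with TMM factors, and log2 CPM used a prior count of 2. Groups came from the titles and genotype labels. Alternatives used DESeq2 1.42.0, limma voom (3.58.1), sva 3.50.0, other filters, a replicate block and left-out libraries. The first surrogate variable from sva partly followed age. It was 0.17 to 0.23 in Ctrl at 20 weeks and 0.21, −0.18, −0.42 and −0.37 in Ctrl replicates 1 to 4 at 8 weeks. In OE it was −0.092, 0.23, 0.19 and 0.25 at 20 weeks and 0.17, −0.27, −0.095 and −0.42 at 8 weeks. Same-numbered libraries of Ctrl and OE correlated in their deviations from the group means from −0.24 to 0.83, so the numbers were not taken to pair the samples. No 2 libraries held identical values, and the fits were tested on simulated data.

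The clock genes and the other gene lists were chosen with earlier results of these data known. From other lists, up to 4 called genes with the smallest adjusted p per comparison are named, and for Arntl and Dbp the 5 genes highest and the 5 lowest in likeness. Genes ranked for likeness had a mean log2 CPM of at least 1 and a symbol that is no predicted or clone name. Some genes that this rule names are not reported here. Gene positions come from RefSeq by gene ID on GRCm38. Plots were made in matplotlib 3.10.9 (Python 3.11.15).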

Additional observations from a re-analysis of the deposited data

Results flagged for a closer look

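In 3 of 40 sets of 4 libraries (10 clock genes in 4 groups), the lowest or the highest library lay farther from the others than Dixon's 95% critical value for gap over range allows; chance alone flags about 1 set in 20. Npas2 in OE replicate 4 at 20 weeks had 8.95 CPM, where the other 3 libraries had 5.58 to 5.80. Per1 in Ctrl replicate 4 at 8 weeks had 101 CPM, where the others had 38.7 to 48.7. Per1 in OE replicate 1 at 8 weeks had 35.8 CPM, where the others had 89.3 to 91.0. Ctrl replicate 4 at 8 weeks is a library with epididymal transcripts, and OE replicate 1 at 8 weeks stands apart on the second principal component. What part these features have in the Per1 values was not tested.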

How the results depend on the processing

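Of 72 log2 fold changes of single genes, 40 kept direction and call under all 10 alternatives that do not leave out 1 library, as did 5 of 6 interactions under 9 such alternatives and 13 of 18 relations of Arntl under 3. The 40 include every single-gene comparison of OE with Ctrl, none of them called in any fit. The clock genes called with age are not among the 40. Of the 10 alternatives, Clock in Ctrl kept direction and call in 9, Cry1 in Ctrl in 6 and Npas2 in OE in 8. The number of clock genes called with age in OE was 2 with DESeq2 size factors, DESeq2, limma voom, and without the libraries numbered 1 at 8 weeks (with or without OE replicate 1 at 20 weeks), and 0 with only the groups compared or 2 surrogate variables. In Ctrl it was 3 with DESeq2, limma voom and without the libraries numbered 1 at 8 weeks (with or without OE replicate 1 at 20 weeks), 1 with only the groups compared and 0 with 2 surrogate variables. Without 1 library each, it ran from 0 to 2 in both genotypes. For OE against Ctrl 0 clock genes were called under every setting run.

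All genes called at 8 weeks were 15 with DESeq2, 12 with limma voom, 8 with only the groups compared and 4 to 9 without 1 library each. At 20 weeks they were 59 with DESeq2, 20 with limma voom, 3 without the 3 libraries set apart and 3 to 6 without 1 library each. With age in OE they were 7671 with limma voom, 2695 with 2 surrogate variables and 2733 to 5786 without 1 library each, and in Ctrl 1758 with 2 surrogate variables. The interaction had 30 with DESeq2 and 0 to 3 without 1 library each. Relations of Arntl that passed at 8 weeks numbered 3 without the libraries set apart and 3 to 6 without 1 library each, and at 20 weeks 2 with deviations from the group mean and 0 to 2 without 1 library each.

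Values near 0 changed sign, none of them called. Arntl with age in OE was −0.0015 with DESeq2 size factors, −0.0014 with DESeq2, −0.038 with surrogate variables and −0.055 without the 2 libraries holding epididymal transcripts, and in Ctrl −0.030 with limma voom and −0.12 without those 2. Per1 with age in Ctrl was 0.035 with limma voom and 0.23 without those 2, and in OE 0.0049 without the 3 libraries set apart and 0.048 without those 2. Dbp with age in Ctrl was 0.040 with limma voom, 0.22 with surrogate variables and 0.17 without those 2, and in OE 0.27 with surrogate variables. Per2 with age was 0.13 in Ctrl without those 2 and 0.011 in OE with surrogate variables, and Nr1d2 in OE was −0.094 without the libraries numbered 1 at 8 weeks. The r of Arntl at 20 weeks with Nr1d1 was 0.073 with deviations from the group mean, and that with Npas2 was 0.036 without the libraries set apart. Without 1 library each, log2 fold changes with age ran from −0.12 to 0.30 for Arntl, −0.63 to 0.23 for Per1, −0.45 to 0.13 for Per2 and −0.61 to 0.17 for Dbp in Ctrl. In OE they ran from −0.15 to 0.37 for Arntl, −0.42 to 0.25 for Per1, −0.50 to 0.094 for Per2 and −0.094 to 0.20 for Nr1d2. OE against Ctrl ran from −0.087 to 0.66 for Dbp at 8 weeks, and at 20 weeks from −0.025 to 0.60 for Dbp, −0.025 to 0.38 for Cry1 and −0.27 to 0.023 for Npas2. Without 1 library each, r with Arntl at 20 weeks ran from −0.44 to 0.13 for Npas2 and from −0.37 to 0.10 for Nr1d1. The cause of these changes was not tested.

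With the replicate number as a block, clock genes called with age were 2 in Ctrl and 1 in OE, as without it, and 0 for OE against Ctrl. The lowest count of a clock gene in any library was 92, for Npas2, and read depth was not varied.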

Other observations

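Bhlhe40, which encodes the E-box repressor DEC1, was singled out after its values were seen. It was the 1 gene of 12 further clock components at an unadjusted edgeR p under 0.05 for OE against Ctrl at 8 weeks and at 20 weeks. Of all genes tested, 2.21% were under 0.05 at 8 weeks and 3.97% at 20 weeks. At 8 weeks Bhlhe40 had 50, 52.7, 68.3 and 46.5 CPM in Ctrl and 33.4, 35.7, 27.2 and 45.0 CPM in OE. Every OE library lay below every Ctrl library, where 1.24% of all genes had groups that did not overlap. At 20 weeks Bhlhe40 had 26.9, 30.2, 32.1 and 41.5 CPM in Ctrl and 46.3, 51.6, 40.2 and 54.0 CPM in OE, with 1 OE library inside the range of Ctrl. OE against Ctrl was −0.62 ± 0.17 at 8 weeks (unadjusted p = 0.00248, adjusted p = 1.0) and 0.56 ± 0.17 at 20 weeks (unadjusted p = 0.00539, adjusted p = 0.996). The interaction of genotype and age was 1.18 ± 0.24, with an unadjusted p of 2.18e-04 and an adjusted p of 0.982 by edgeR, which does not pass over all genes. With DESeq2 the interaction was 1.17 with adjusted p = 0.00530, and over all alternatives for it the adjusted p ran from 0.00530 to 1.0.

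Of 12 immediate early genes, 6 were called higher and 1 lower at 20 weeks in Ctrl, and 7 higher and 0 lower in OE, where 19.6% of all genes tested were called higher and 21.3% lower in Ctrl, and 13.1% and 9.91% in OE. Atf3 was higher by 3.82 ± 0.44 in Ctrl and 3.44 ± 0.43 in OE, Fos by 2.70 ± 0.35 and 2.48 ± 0.34, Egr2 by 2.64 ± 0.42 and 2.40 ± 0.41, and Junb by 1.23 ± 0.21 and 1.39 ± 0.21 on the log2 scale. The 1 gene lower in Ctrl was Fosb, at −0.97 ± 0.32, a call lost without Ctrl replicate 1 or 2 at 20 weeks or Ctrl replicate 2 or 3 at 8 weeks, with adjusted p from 0.0549 to 0.0797. With 2 surrogate variables Fosb in Ctrl was at −0.44 (adjusted p = 0.602) and Junb in Ctrl at 0.59 (adjusted p = 0.0920), neither called, whereas Atf3, Fos and Egr2 were called in both genotypes. The list's median was 0.34 in Ctrl and 0.51 in OE, beside −0.05 and −0.03 over all genes tested.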
